A study of Mus musculus with 4 samples.

Results

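The genes described here encode the enzymes, transporters and kinases that take glucose into the cell, break it down to pyruvate and lactate, pass pyruvate to the mitochondrion, and divert sugar into the pentose phosphate pathway. A fixed list of 37 gene symbols was looked up in the gene count table, which holds 24421 genes, and all 37 were found. RNA was sequenced from LSK cells of mice, named for the lack of lineage markers and the presence of Sca1 and Kit on their surface. Hematopoietic stem cells and early multipotent progenitors are found among them. The tested mice carried 1 mutant p53 allele (genotype p53R248W/+, 2 libraries) and the others were wild type (WT, 2 libraries). All mice were aged 13 to 15 months when studied, and the mutant allele replaces 1 amino acid of the tumour suppressor p53 where it contacts DNA. The sources used here do not say whether a library came from 1 mouse or from pooled mice, so p-values here reflect only how far these libraries differ, and that spread may be technical.

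Glycolysis splits glucose into pyruvate in the cytosol and yields ATP without oxygen. Pyruvate is then either reduced to lactate or oxidised by the mitochondrial pyruvate dehydrogenase complex, which the pyruvate dehydrogenase kinases switch off by phosphorylation. The pentose phosphate pathway branches off after the first phosphorylation and supplies NADPH and ribose for nucleotides. Mouse hematopoietic stem cells are known to lean on glycolysis while quiescent, and wild-type p53 is known to restrain glycolysis at several points.

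The 4 libraries held 12111126 to 14820759 counted reads and 14446 to 15080 genes with at least 1 read. A total of 13296 genes, 36 of the 37 among them, passed the filter on low counts and were tested. Levels of a gene between libraries are given as CPM, read counts scaled to the TMM-adjusted library size, and levels between genes as TPM, which also divides by the exon length. The count floor of 3 reads lay at 0.202 to 0.248 CPM and covers counting error only. The 8 LSK identity genes, with Kit and Ly6a (Sca1) among them, were all detected and summed to 3228 and 3208 CPM in the p53R248W/+ libraries and 2549.8 and 2853 CPM in the WT libraries. Ly6a alone was at 81.1 and 70.8 CPM in p53R248W/+ and at 40.2 and 82.9 CPM in WT, where replicate 1 was the lowest of the 4 libraries.

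The comparison asks which of these transcripts differ in aged LSK cells that carry the mutant allele. Most of the glycolytic enzymes lay lower in p53R248W/+ than in WT cells by small amounts, while the pyruvate dehydrogenase subunits were close to level. Of the 4 pentose phosphate genes, 3 were estimated lower, by amounts also seen among the glycolytic enzymes. None of the 36 tested genes passed an adjusted p of 0.05 in either direction, and neither did any other gene (0% of 13296, edgeR's quasi-likelihood test with Benjamini-Hochberg adjustment). At an unadjusted p under 0.05 there were 3 of the 36, all lower, namely the hexokinase Hk2, the isomerase Tpi1 and the lactate dehydrogenase Ldha. Of all tested genes 5.87% were at that level, with 2.86% of all tested genes lower and 3.01% higher. No member was called by DESeq2, limma-voom or edgeR's likelihood ratio test either, which called 6 (0.0451%), 0 and 4 genes of the whole table. Adjusted p-values of the 36 ran from 0.824 to 0.997. With 2 libraries per genotype, no difference below stands beyond the spread estimated by the fit once all genes are accounted for.

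The log2 fold change (p53R248W/+ over WT) was below 0 for 26 of the 36 members, or 72.2%, where the share over all tested genes was 50%. Its median was -0.16 over the members and 0.00 over all tested genes. The genotypes did not overlap for 17 members. Of these, 14 had both p53R248W/+ values under both WT values, or 38.9% of the 36 against 16.6% of all tested genes. The other 3, Eno2, Pdk1 and Taldo1, were higher in both, or 8.33% against 16.9%. These shares are descriptions, since the members were chosen with earlier results of these data known.

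**Figure D1:**
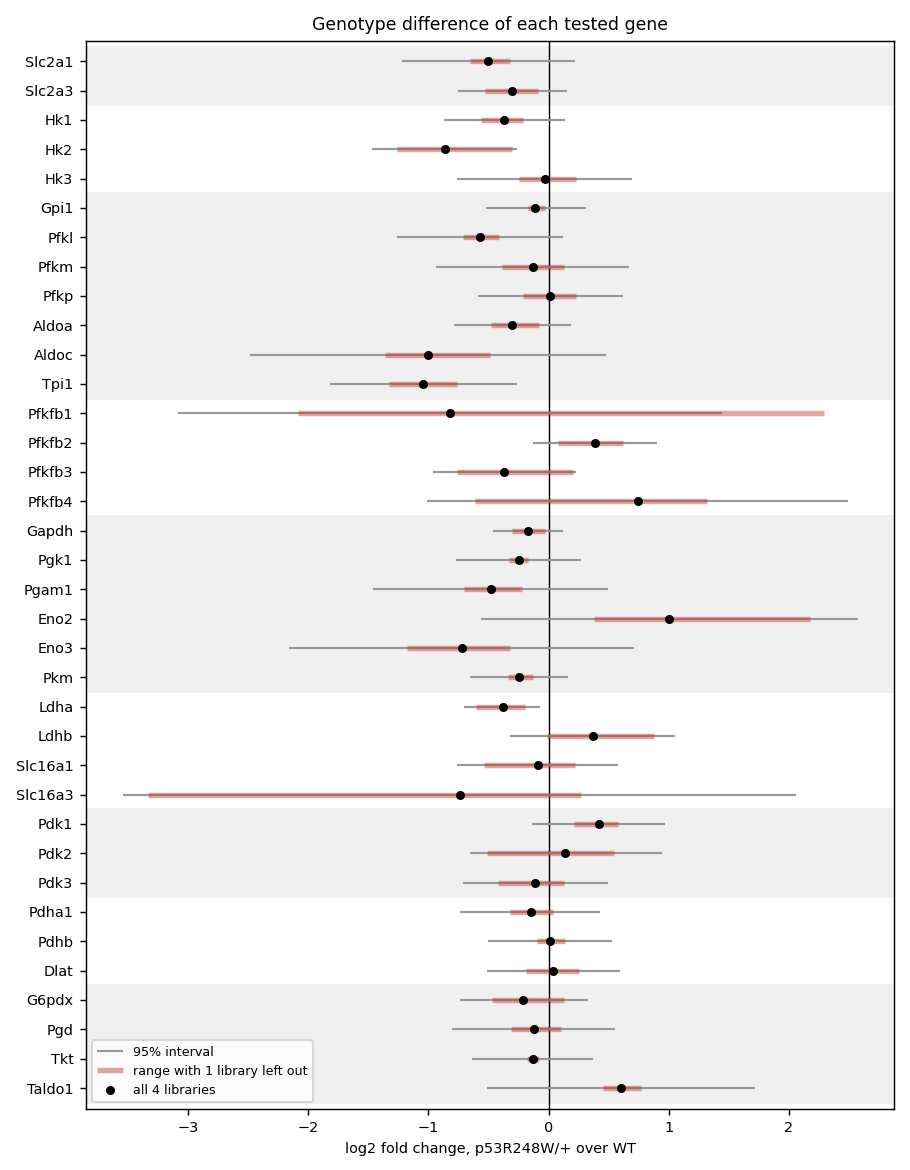
Log2 fold change (p53R248W/+ over WT, horizontal axis) of the 36 tested genes, with shaded bands separating roles from glucose uptake at the top to the pentose phosphate pathway at the bottom. Black points are the estimates over all 4 libraries, grey lines their 95% intervals, and red bars the range when 1 library is left out. The intervals of Hk2, Tpi1 and Ldha lie below 0, and all others cross it.

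The transcripts differed widely in level. Gapdh, the glyceraldehyde phosphate dehydrogenase, stood first at a mean of 1832 TPM over the 4 libraries, and Ldha, which reduces pyruvate to lactate, second at 1327 TPM. The pyruvate kinase gene Pkm at 239 TPM, the pyruvate dehydrogenase subunit gene Pdhb at 216 TPM and the aldolase gene Aldoa at 214 TPM came next. At the other end, the lactate exporter gene Slc16a3 had 1.40 TPM and Pfkfb4 had 5.18 TPM. WT replicate 1 held the top value for 21 of the 36 (58.3%, against 28.3% of all tested genes). p53R248W/+ replicate 1 held it for 7 (19.4% against 27.6%), and p53R248W/+ replicate 2 and WT replicate 2 for 4 each (11.1%, against 22.1% and 22.0%). The lowest value was in p53R248W/+ replicate 1 for 12 members (33.3% against 27.3%) and in p53R248W/+ replicate 2 for 14 (38.9% against 22.7%). It was in WT replicate 1 for 3 (8.33% against 28.8%) and in WT replicate 2 for 7 (19.4% against 21.2%).

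Eno1, the main enolase of most tissues, could not be read from this table. It held 1 and 1 reads in the p53R248W/+ libraries and 2 and 3 in the WT libraries, at or under the floor, and was the 1 member not tested. Of its 1776 annotated exon bases, 1649 are also listed for the gene Eno1b, whose row joins exons on 2 chromosomes and held 0 to 11 reads. Reads that overlap 2 genes are by default not assigned by the counting program, and the sources do not give the setting. Near-identical copies elsewhere touch other members as well. Of the 50-base words in its GENCODE transcripts, Pgk1 shared 68.0% with transcripts of other genes, Gapdh 58.4%, and Pgam1 41.5%. The levels of the 15 members that share at least 5% of their words are therefore less certain than those of Hk2 or Slc2a1, which share none.

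**Figure D2:**
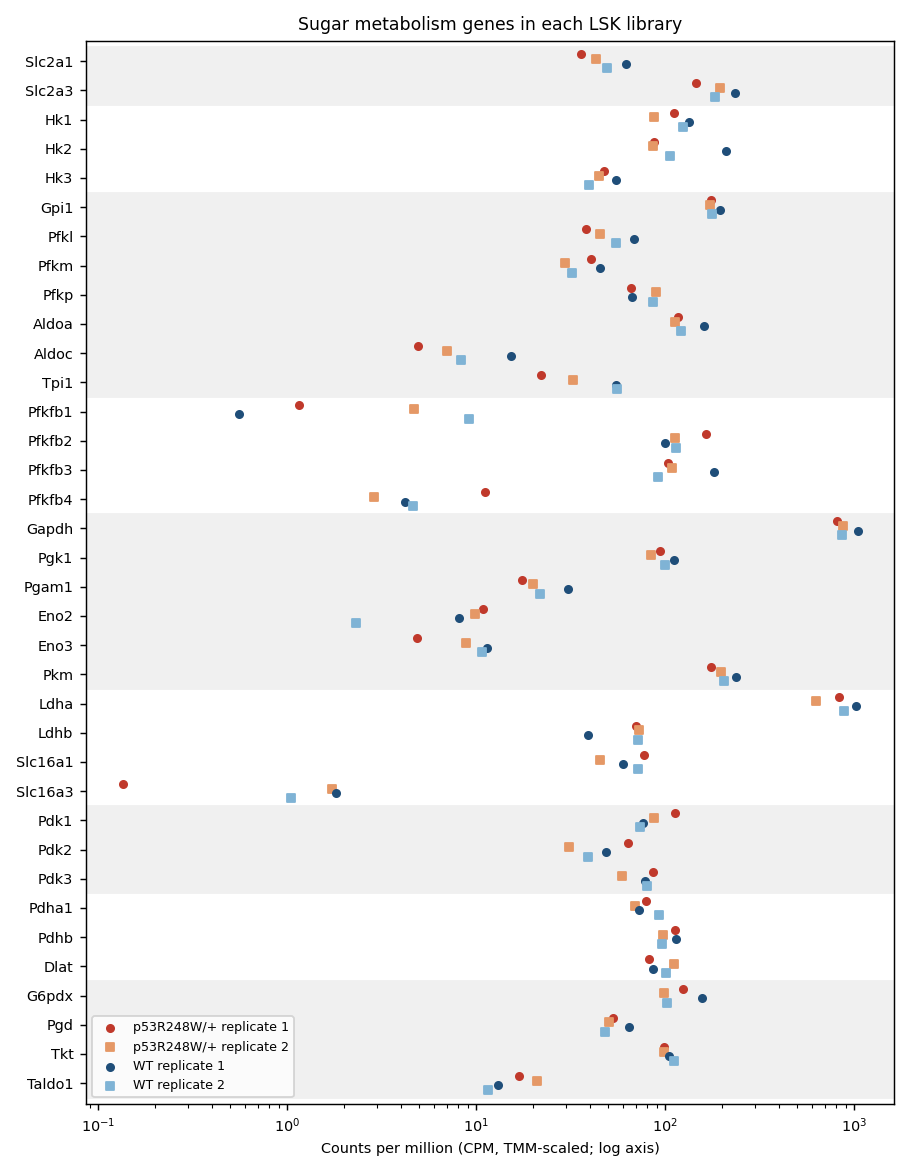
CPM (log axis) of the 36 tested genes in each library, red and orange for p53R248W/+ replicates 1 and 2 and dark and light blue for WT replicates 1 and 2. WT replicate 1 is the rightmost point for 21 genes, among them Hk2 and Pfkfb3, where it stands apart from the other 3 libraries.

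Both glucose transporters and all 3 hexokinases had a log2 fold change below 0, the smallest being that of Hk3 at -0.03 ± 0.34 (SE). Slc2a1, which encodes the widely used transporter GLUT1, was at 35.7 and 43.2 CPM in p53R248W/+ and at 61.9 and 49.0 CPM in WT. The groups did not overlap (log2 fold change -0.50 ± 0.34, SE from the fit to 2 libraries of each genotype; adjusted p = 0.852, edgeR). Slc2a3, which encodes the high-affinity transporter GLUT3, was at 145 and 195 CPM in p53R248W/+ and at 233 and 183 CPM in WT. Those values overlapped (log2 fold change -0.30 ± 0.21, SE; adjusted p = 0.863, edgeR), with p53R248W/+ replicate 1 the lowest.

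Hexokinases trap glucose in the cell by phosphorylation. Hk2, the inducible isozyme that docks on mitochondria (mm10 chromosome 6, 82725027 to 82774454, minus strand), was at 87.3 and 85.7 CPM in p53R248W/+ and at 209 and 106 CPM in WT. WT replicate 1 stood apart, and the other WT library lay above both mutant ones by a smaller margin. Expression in the mutant cells was estimated as 1.82-fold lower, at a log2 fold change of -0.86 ± 0.29 (SE; unadjusted p = 0.00753, adjusted p = 0.824, edgeR), and it was -0.30 without WT replicate 1 and -1.26 without WT replicate 2. Hk1, the constitutive isozyme, was at 111 and 87.5 CPM in p53R248W/+ against 134 and 124 CPM in WT. Its groups did not overlap, and p53R248W/+ replicate 2 was the lowest library (log2 fold change -0.37 ± 0.24, SE; adjusted p = 0.838, edgeR). Hk3, the isozyme of myeloid cells, overlapped between genotypes at 39.3 to 55.0 CPM. Summed over the 3 genes, the step stood at 169 and 152.5 TPM in p53R248W/+ and at 247 and 182 TPM in WT.

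In upper glycolysis, 6 of 7 genes had a log2 fold change below 0, where 50% of all tested genes did, and 5 were lower in both mutant libraries, where 16.6% of all tested genes were. Tpi1, the isomerase that joins the split 3-carbon sugars into 1 path (chromosome 6, 124810592 to 124814296, minus strand), was at 21.9 and 32.5 CPM in p53R248W/+ and at 54.7 and 55.5 CPM in WT. The WT libraries were nearly equal and both stood well above the mutant ones. The estimate was 2.06-fold lower, at a log2 fold change of -1.04 ± 0.37 (SE; unadjusted p = 0.0120, adjusted p = 0.824, edgeR), and -1.33 to -0.76 with single libraries left out. Tpi1 shares 25 exon bases with Spsb2, and 6.83% of its words occur in other genes. Pfkl, the liver-type phosphofructokinase of the committed step, was at 38.2 and 45.3 CPM in p53R248W/+ and at 68.1 and 55.1 CPM in WT (log2 fold change -0.57 ± 0.33, SE; adjusted p = 0.835, edgeR). The muscle-type Pfkm, at -0.13 ± 0.38, and the platelet-type Pfkp, at 0.01 ± 0.29 (SE), overlapped between genotypes and changed sign with single libraries left out. Pfkp was at 65.9 and 89.4 CPM in p53R248W/+ and at 66.5 and 86.0 CPM in WT (adjusted p = 0.997, edgeR).

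Aldoa, the main aldolase, was at 117 and 112 CPM in p53R248W/+ and at 161 and 121 CPM in WT, with WT replicate 1 again apart. The log2 fold change of -0.30 ± 0.23 (SE; adjusted p = 0.880, edgeR) was -0.08 without that library. Aldoc, the brain-type aldolase, was scarce at 4.92 and 7.02 CPM in p53R248W/+ and 15.2 and 8.28 CPM in WT (log2 fold change -1.0 ± 0.70, SE; adjusted p = 0.858, edgeR), or -0.49 without WT replicate 1. Gpi1, the glucose phosphate isomerase, lay at 172 to 196 CPM in all libraries, with both mutant ones just below both WT ones.

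The PFKFB enzymes make and remove the fructose bisphosphate that activates phosphofructokinase, and they did not lean one way. Pfkfb3, the isozyme with the strongest kinase side, was at 103 and 109 CPM in p53R248W/+ and at 180 and 92.0 CPM in WT. The groups overlapped because WT replicate 2 lay lowest and WT replicate 1 highest (log2 fold change -0.37 ± 0.28, SE; adjusted p = 0.876, edgeR), and the value was 0.20 without WT replicate 1. Pfkfb2 was at 164 and 112 CPM in p53R248W/+ and at 99.5 and 113 CPM in WT, and it shares 154 exon bases with Yod1. Pfkfb1 and Pfkfb4 had at most 9.19 and 11.1 CPM, with replicates of 1 genotype differing more than the genotypes.

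In lower glycolysis, 5 of the 6 tested genes had a log2 fold change below 0 (50% of all tested genes did). Gapdh was at 812 and 875 CPM in p53R248W/+ and at 1042 and 861 CPM in WT, so that p53R248W/+ replicate 2 lay above WT replicate 2. The log2 fold change was -0.17 ± 0.14 (SE; adjusted p = 0.882, edgeR), with a 95% interval from -0.46 to 0.12. Pkm, the pyruvate kinase gene whose splice isoforms cannot be told apart in gene counts, was at 175 and 197 CPM in p53R248W/+ and at 237 and 204 CPM in WT (log2 fold change -0.25 ± 0.19, SE; adjusted p = 0.882, edgeR). Pgam1, the phosphoglycerate mutase, was at 17.5 and 19.9 CPM in p53R248W/+ and at 30.4 and 21.7 CPM in WT (log2 fold change -0.48 ± 0.46, SE; adjusted p = 0.901, edgeR), or -0.22 without WT replicate 1. Both genes were lower in both mutant libraries by a margin that was small beside the distance between the WT libraries. Pgk1, the phosphoglycerate kinase, was also lower in both (log2 fold change -0.25 ± 0.25, SE).

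The 2 minor enolases lay in opposite directions at low levels. Eno2, the neuronal enolase, was at 10.9 and 9.91 CPM in p53R248W/+ and at 8.09 and 2.31 CPM in WT (log2 fold change 1.00 ± 0.74, SE; adjusted p = 0.872, edgeR). WT replicate 2 set most of that value, which was 0.38 without it and 2.17 without WT replicate 1. Eno3, the muscle enolase, was at 4.86 and 8.84 CPM in p53R248W/+ and at 11.4 and 10.7 CPM in WT (log2 fold change -0.72 ± 0.68, SE; adjusted p = 0.898, edgeR), with p53R248W/+ replicate 1 the lowest.

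The lactate step was carried by Ldha, which was lower in the mutant cells. Ldha (chromosome 7, 46845804 to 46855627, plus strand) was at 829 and 628 CPM in p53R248W/+ and at 1024 and 880 CPM in WT. Both mutant libraries lay below both WT libraries, and p53R248W/+ replicate 2 was the lowest. The estimate was 1.31-fold lower, at a log2 fold change of -0.38 ± 0.15 (SE; 95% interval -0.70 to -0.07; unadjusted p = 0.0205, adjusted p = 0.824, edgeR), and single libraries left out gave -0.60 (p53R248W/+ replicate 1) to -0.20 (p53R248W/+ replicate 2). Ldhb, whose subunit favours the return of lactate to pyruvate, was at 70.1 and 72.3 CPM in p53R248W/+ and at 38.8 and 71.8 CPM in WT. Apart from the low value of WT replicate 1 it was level, and the log2 fold change of 0.37 ± 0.33 (SE; adjusted p = 0.892, edgeR) was -0.01 without that library. Slc16a1, the lactate transporter MCT1, was at 76.8 and 45.3 CPM in p53R248W/+ and at 59.8 and 71.9 CPM in WT, where the mutant libraries enclosed the WT ones (log2 fold change -0.09 ± 0.32, SE; adjusted p = 0.982, edgeR). Slc16a3, the exporter MCT4, had 0.135 CPM in p53R248W/+ replicate 1, under the floor, and 1.05 to 1.81 CPM in the other 3 libraries, so no fold is given here. With p53R248W/+ replicate 2 left out, the mutant value rests on the 2 reads of replicate 1.

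The sequences upstream of the transcription start are shown for Hk2, Ldha and Tpi1, the 3 genes at an unadjusted p under 0.05. They are RefSeq windows of the GRCm38.p6 assembly, which uses mm10 coordinates, cut to the 250 bases before the start and written 5′ to 3′ on the gene's strand. Capitals mark ACGTG on either strand, the core of the hypoxia response element bound by HIF, which is also contained in the E-box CACGTG bound by Myc. Hk2 is chr6:82774455-82774704 on the minus strand, Ldha chr7:46845554-46845803 on the plus strand (the first of its 2 RefSeq starts) and Tpi1 chr6:124814159-124814408 on the minus strand. The RefSeq start of Tpi1, at 124814158, lies inside the counted gene, which reaches 124814296. Part of the Tpi1 stretch therefore falls within that gene and not upstream of it.
Hk2: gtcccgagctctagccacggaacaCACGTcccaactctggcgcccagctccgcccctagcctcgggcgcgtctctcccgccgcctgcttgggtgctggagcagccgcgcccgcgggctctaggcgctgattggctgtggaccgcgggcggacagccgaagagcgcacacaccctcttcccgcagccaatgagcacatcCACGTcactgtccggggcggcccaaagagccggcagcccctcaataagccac
Ldha: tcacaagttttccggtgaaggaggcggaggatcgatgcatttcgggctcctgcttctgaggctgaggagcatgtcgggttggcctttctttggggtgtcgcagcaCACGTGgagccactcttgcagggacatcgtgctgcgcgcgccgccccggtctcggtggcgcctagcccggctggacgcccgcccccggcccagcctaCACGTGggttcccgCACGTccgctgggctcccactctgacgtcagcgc
Tpi1: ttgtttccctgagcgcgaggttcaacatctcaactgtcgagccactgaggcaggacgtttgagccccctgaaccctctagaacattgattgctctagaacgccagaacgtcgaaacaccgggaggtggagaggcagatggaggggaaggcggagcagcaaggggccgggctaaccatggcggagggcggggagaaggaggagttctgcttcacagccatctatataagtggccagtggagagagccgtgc
In the stretches shown, Hk2 has the letters at 2 places, Ldha at 3, of which 2 are E-boxes, and Tpi1 at none. In windows of 300 bases (250 before to 50 after each start), 20 of the 36 members with an entry held ACGTG in at least 1 window, or 55.6%, against 29.1% of the 10023 tested genes with an entry. By window the share was 42.9% of the 56 windows of the members against 19.6% of all 32851 windows, which include those of genes not tested. The 36 members with an entry include the untested Eno1, and the base composition of the windows was not taken into account. CACGTG was in 6 members, or 16.7% against 11.7%. A match is a description of the letters and not a binding site, and genes with more windows have more chances to hold one. Slc2a3 was the member without an entry.

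The pyruvate dehydrogenase genes showed no common direction. Pdk1, a kinase that shuts the complex and a known HIF target, was at 113 and 87.1 CPM in p53R248W/+ and at 76.5 and 73.9 CPM in WT. Both mutant libraries were higher, with a log2 fold change of 0.42 ± 0.26 (SE; adjusted p = 0.835, edgeR) that ran from 0.21 to 0.58 with single libraries left out. Pdk3, the kinase with the highest TPM in these cells, was at 86.3 and 59.0 CPM in p53R248W/+ and at 78.0 and 79.9 CPM in WT, so the mutant libraries lay on either side of WT (log2 fold change -0.11 ± 0.28, SE; adjusted p = 0.970, edgeR). Pdk2, a kinase tied to stem cell quiescence in mice, was spread in the same way, at 63.9 and 30.9 CPM in p53R248W/+ and 48.8 and 39.0 CPM in WT. For all 3 kinases p53R248W/+ replicate 1 held the highest value of the 4 libraries.

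The subunits of the complex itself were nearly level. Pdha1, the catalytic alpha subunit, was at 79.3 and 68.8 CPM in p53R248W/+ and at 72.5 and 92.9 CPM in WT (log2 fold change -0.15 ± 0.28, SE; adjusted p = 0.960, edgeR), and it shares 603 exon bases with Map3k15. Pdhb, the beta subunit, had a log2 fold change of 0.01 ± 0.24 and Dlat, the acetyltransferase core, of 0.04 ± 0.26 (SE). The 95% intervals ran from -0.50 to 0.53 for Pdhb and from -0.51 to 0.59 for Dlat. Summed over the 3 subunits the level was 384 and 372 TPM in p53R248W/+ and 363 and 381 TPM in WT.

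Of the 4 pentose phosphate genes, 3 had a log2 fold change below 0, where 50% of all tested genes did, and Taldo1 was above 0. The 3 lower values were small, but of a size also seen in glycolysis, as for Gapdh at -0.17. G6pdx, the glucose phosphate dehydrogenase that makes the first NADPH, was at 123 and 98.7 CPM in p53R248W/+ and at 156 and 102 CPM in WT (log2 fold change -0.21 ± 0.25, SE; adjusted p = 0.933, edgeR), or 0.13 without WT replicate 1. Pgd, the next dehydrogenase, was at 52.8 and 50.1 CPM in p53R248W/+ and at 64.2 and 48.1 CPM in WT (log2 fold change -0.12 ± 0.32, SE; adjusted p = 0.970, edgeR). WT replicate 1 was the highest library for both dehydrogenases. Tkt, the transketolase that links the pathway back to glycolysis, was at 98.9 and 98.1 CPM in p53R248W/+ and at 104 and 112 CPM in WT (log2 fold change -0.13 ± 0.24, SE; adjusted p = 0.960, edgeR). By a small margin, Tkt was lower in both mutant libraries. Taldo1, the transaldolase of the same reversible arm, was at 16.8 and 21.0 CPM in p53R248W/+ and at 13.0 and 11.6 CPM in WT. It was higher in both mutant libraries, with a log2 fold change of 0.60 ± 0.53 (SE; adjusted p = 0.892, edgeR) and 10.7% of its words in a pseudogene.

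Several steps can be served by more than 1 gene, and the share of each isozyme was taken from TPM. In 6 of 9 such steps the same gene led in all 4 libraries, and the enolases could not be read because Eno1 was not measured. Aldoa made up 97.4% and 96.2% of the aldolases in p53R248W/+ and 94.3% and 95.8% in WT. Slc2a3 made up 72.5% and 74.6% of the 2 glucose transporters in p53R248W/+ and 70.9% and 70.8% in WT. Ldha held 88.9% and 85.4% of lactate dehydrogenase in p53R248W/+ and 94.7% and 89.2% in WT, so the Ldhb share was higher in both mutant libraries.

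The hexokinases and phosphofructokinases were mixed, with no gene above 50% in any library. Hk2 was 28.8% and 32.0% of hexokinase in p53R248W/+ and 44.9% and 32.8% in WT, and it led the step in WT replicate 1 alone, ahead of Hk1. Hk3 was 26.4% and 28.0% in p53R248W/+ and 20.0% and 20.4% in WT, a gap between genotypes of 6.99 percentage points with close replicates. Pfkl was 26.2% and 28.2% of phosphofructokinase in p53R248W/+ and 37.4% and 32.3% in WT. Pdk1 was 23.4% and 28.0% of the 3 kinases in p53R248W/+ and 19.6% and 19.9% in WT, while Pdk3 was lower in both mutant libraries at 46.3% and 49.2% against 51.8% and 55.9% in WT. With 2 libraries per genotype no test was made of these shares, and a share moves whenever another gene of its step moves.

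**Figure D3:**
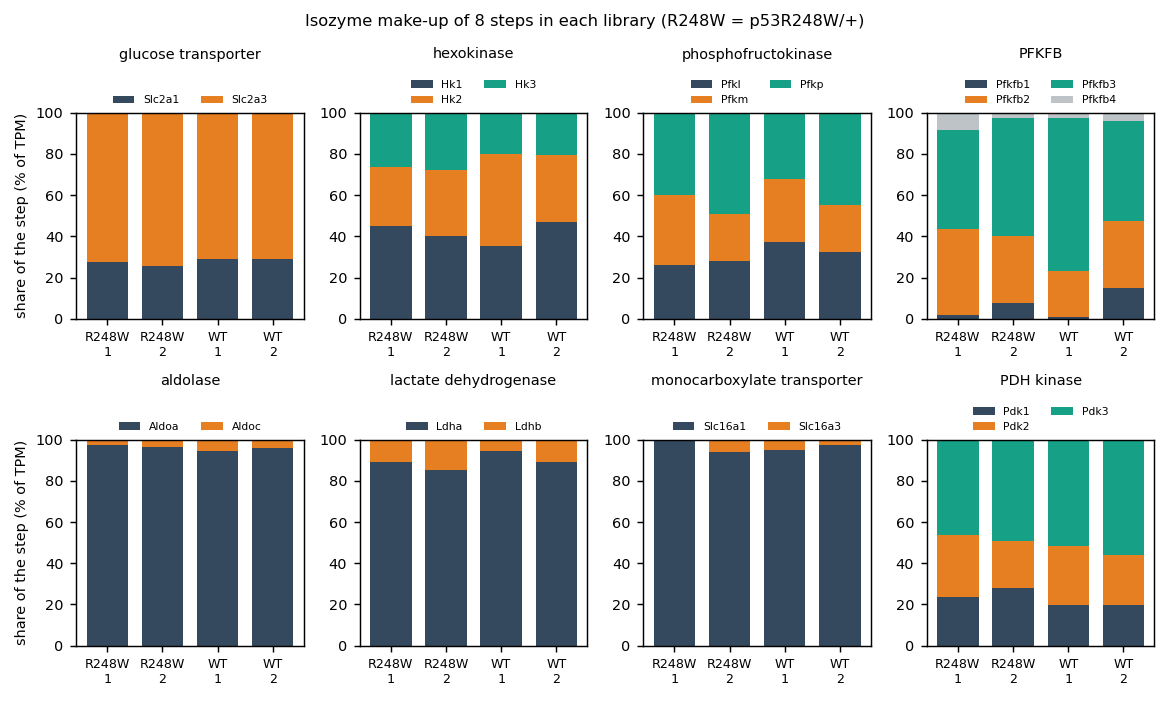
Share of each isozyme in the summed TPM of its step (percent, vertical axis), 1 stacked bar per library with the p53R248W/+ libraries left of the WT libraries. Hk2 takes 44.9% of hexokinase in WT replicate 1 and 28.8% to 32.8% in the other 3 libraries, and Pfkfb3 takes 74.1% of its step there against 48.1% to 57.4% elsewhere.

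The lower median of the members was seen without each library in turn, at sizes that depended on which was left out. It was -0.12 without WT replicate 1 and -0.30 without WT replicate 2, with the median over all genes at 0.03 and 0.06. Without p53R248W/+ replicate 1 it was -0.29 and without p53R248W/+ replicate 2 it was -0.18, with the median over all genes at -0.04 both times. The log2 fold change was below 0 for 28 members without p53R248W/+ replicate 1 (77.8%, against 53.1% of all tested genes) and for 24 without p53R248W/+ replicate 2 (66.7% against 52.9%). It was below 0 for 24 without WT replicate 1 (66.7% against 47.6%) and for 25 without WT replicate 2 (69.4% against 46.2%). With 3 libraries, genotypes fail to overlap more often. Members whose p53R248W/+ values all lay under the WT values then numbered 16 without WT replicate 1, or 44.4% against 32.5% of all tested genes, and 23 without WT replicate 2, or 63.9% against 34.7%. Without p53R248W/+ replicate 1 it was 21 (58.3% against 31.6%), and without p53R248W/+ replicate 2 it was 19 (52.8% against 33.5%). Members with all p53R248W/+ values above the WT values numbered 6 without p53R248W/+ replicate 1 (16.7% against 31.8%), 8 without p53R248W/+ replicate 2 (22.2% against 34.6%), 7 without WT replicate 1 (19.4% against 31.1%) and 6 without WT replicate 2 (16.7% against 34.9%). The lower count exceeded the higher one whichever library was left out.

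Which members reached an unadjusted p under 0.05 also depended on the library left out. Ldha alone did so without p53R248W/+ replicate 1 (2.78% of the members, against 2.39% of all tested genes), and Tpi1 alone without WT replicate 1 (2.78% against 2.94%). Tpi1 and Pfkfb2 did so without p53R248W/+ replicate 2 (5.56% against 6.38%), Pfkfb2 being higher in the mutant. Without WT replicate 2 the 5 were Hk2, Tpi1, Ldha, Pfkfb3 and, higher in the mutant, Ldhb (13.9% against 7.73%). The summed level from hexokinase to lactate dehydrogenase was 4292 and 4220.0 TPM in p53R248W/+ and 5165 and 4673 TPM in WT, with both mutant libraries lower. Gapdh and Ldha made up most of that sum, at means of 1753 and 1171 TPM in p53R248W/+ and 1910 and 1482 TPM in WT. Gapdh overlapped between genotypes, and Eno1, which could not be read, added almost nothing.

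**Figure D4:**
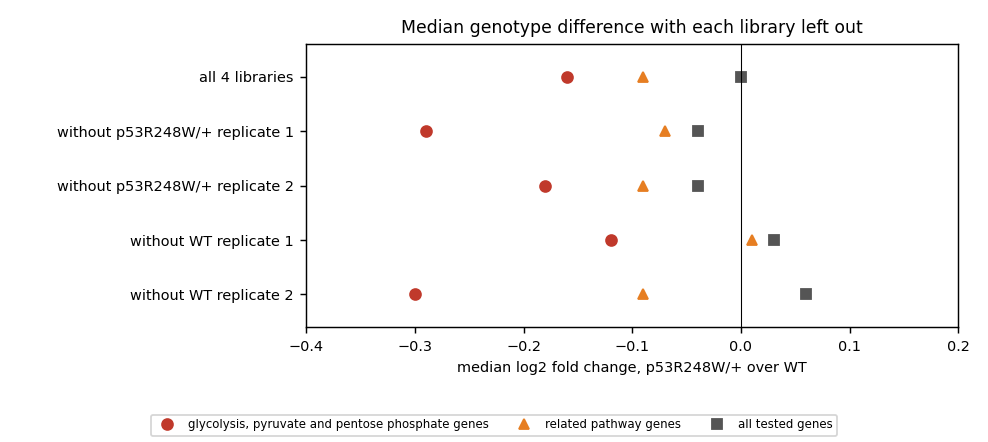
Median log2 fold change (p53R248W/+ over WT) with all 4 libraries and with each left out, for the 36 members (red circles), the related pathway genes (orange triangles) and all tested genes (grey squares). The members' median lies below that of all genes in every row, from -0.30 to -0.12.

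Markers of other cell types and states also differed between libraries or genotypes, in several patterns. Immediate early and stress genes respond to growth factors and cell handling. They summed to 5468 and 6397 CPM in p53R248W/+ and 11058 and 7331 CPM in WT. Of them, 18 of 18 tested were below 0, where 50% of all tested genes were, at a median log2 fold change of -0.73. An unadjusted p under 0.05 (edgeR) was reached by 9 of these 18, against 5.87% of all tested genes. WT replicate 1 was their highest library, as it was for the glycolytic genes. Neutrophil and monocyte genes summed to 1010.0 and 807 CPM in p53R248W/+ and 1704 and 584 CPM in WT, with 5 of 10 tested members below 0 and none at 0 reads in all libraries. Mpo, a granule gene already used by early progenitors, was at 628 and 544 CPM in p53R248W/+ and at 1273 and 314 CPM in WT. S100a8, a gene of mature neutrophils, was at 5.94 and 10.7 CPM in p53R248W/+ and at 1.05 and 7.79 CPM in WT. Proliferation genes summed to 2281 and 3783 CPM in p53R248W/+ and 3182 and 3948 CPM in WT. Of these, 20 of 22 were below 0. At an unadjusted p under 0.05 (edgeR) there were 4, namely Mcm3, Rrm1, Cdc45 and Lig1, all lower in the mutant. The median of the proliferation genes was -0.27, and 0.03 without p53R248W/+ replicate 1. In their sum, WT replicate 2 was highest and p53R248W/+ replicate 1 lowest, a library order unlike that of the glycolytic genes.

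The marker sums of 3 other cell type lists lay higher in the mutant libraries, though not every gene in them did. Mast cell, basophil and eosinophil genes summed to 56.3 and 76.6 CPM in p53R248W/+ and 35.0 and 32.9 CPM in WT, with 7 of 8 tested members above 0, a median log2 fold change of 1.07 and 3 at an unadjusted p under 0.05. B lineage genes summed to 124 and 69.5 CPM in p53R248W/+ and 66.9 and 56.3 CPM in WT, with Pax5 at 0 in all libraries. Of the tested members, 5 of 5 were above 0, at a median of 1.43, and 1 was at an unadjusted p under 0.05 (edgeR). Stroma and endothelium genes summed to 186.5 and 149 CPM in p53R248W/+ and 111 and 92.4 CPM in WT, with Cxcl12 at 0. Of the tested members, 4 of 4 were above 0, at a median of 0.73, and 1 was at an unadjusted p under 0.05 (edgeR). Pecam1 weighed most in the sum, at 105 and 100 CPM in p53R248W/+ and 70.4 and 50.7 CPM in WT. Kdr was also higher in both mutant libraries. Col1a2 and Emcn overlapped between genotypes, while Lepr, Cdh5 and Col1a1 had at most 5.67, 1.82 and 0.14 CPM. For these 3 lists both mutant sums were above both WT sums. Megakaryocyte and platelet genes summed to 1740.0 and 1299 CPM in p53R248W/+ and 1327 and 1445 CPM in WT, with 5 of 7 below 0, a median of -0.04 and 3 at an unadjusted p under 0.05. T and NK cell genes (82.6 and 67.8 CPM in p53R248W/+, 69.0 and 84.5 CPM in WT) and erythroid genes (118 and 217 CPM in p53R248W/+, 174 and 128 CPM in WT) overlapped between genotypes, with Cd3g, Gzma and the globins Hba-a1, Hbb-bs and Hbb-bt at 0. The part of these groups in the values of the sugar metabolism genes was not tested. In bulk samples, fewer cells of a type and less RNA per cell cannot be told apart.

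A further list of 87 related genes covered other isozymes, mitochondrial pyruvate entry, the rest of the pyruvate dehydrogenase and pentose phosphate systems, glycogen, the serine and hexosamine branches and regulators. All were in the table and 70 were tested. None passed, and 1 was lower and 1 higher at an unadjusted p under 0.05 (edgeR), or 2.86% of 70 against 5.87% of all tested genes. The log2 fold change was below 0 for 43, or 61.4% against 50% of all tested genes. Its median was -0.09 against 0.00 over all tested genes. Without WT replicate 1 the median of the related genes was 0.01, with the median over all genes at 0.03. The groups did not overlap for 12 lower and 8 higher genes, or 17.1% and 11.4%, with shares over all tested genes of 16.6% and 16.9%.

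Psat1, the aminotransferase of serine synthesis from a glycolytic intermediate, was at 107 and 142 CPM in p53R248W/+ and at 185 and 193 CPM in WT. Both mutant libraries lay lower (log2 fold change -0.61 ± 0.22, SE; unadjusted p = 0.0122, adjusted p = 0.824, edgeR), and the value ran from -0.82 to -0.41 with single libraries left out. Epas1, which encodes the hypoxia factor HIF-2 alpha, was at 27.0 and 19.8 CPM in p53R248W/+ and at 3.91 and 15.6 CPM in WT (log2 fold change 1.28 ± 0.59, SE; unadjusted p = 0.0444, adjusted p = 0.824, edgeR). WT replicate 1 was low, and the value was 0.60 without it. Hif1a and Myc, regulators of glycolytic genes, were level at log2 fold changes of 0.06 ± 0.24 and 0.00 ± 0.17 (SE), and both turned in sign with single libraries left out.

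G6pc3, a glucose phosphatase, was lower in both mutant libraries at 46.6 and 34.9 CPM, against 70.2 and 54.7 CPM in WT (log2 fold change -0.60 ± 0.33, SE). Pgm2, the older mouse name of the phosphoglucomutase now called Pgm1, was also lower in both (-0.57 ± 0.44, SE), while Rbks, which phosphorylates ribose, was higher in both (0.60 ± 0.54, SE). Vhl, whose protein marks HIF factors for degradation, was at 19.8 and 15.1 CPM in p53R248W/+ and at 10.9 and 10.8 CPM in WT (log2 fold change 0.70 ± 0.55, SE). Tigar, a fructose bisphosphatase and p53 target, was scarce at 3.78 and 0.991 CPM in p53R248W/+ and at 7.25 and 5.19 CPM in WT. Both mutant libraries were lower, at a log2 fold change of -1.30 ± 0.91 (SE; adjusted p = 0.857, edgeR) that ran from -2.64 (p53R248W/+ replicate 1 left out) to -0.72 (p53R248W/+ replicate 2 left out). The pyruvate carrier gene Mpc2 (10.1 and 18.7 CPM in p53R248W/+, 28.2 and 13.5 CPM in WT) overlapped between genotypes, and its partner Mpc1 was at no more than 1.90 CPM. Txnip, a brake on glucose uptake, and Bsg, the partner of the lactate transporters, also overlapped, at log2 fold changes of 0.20 ± 0.16 and 0.07 ± 0.27 (SE). Txnip shares 606 exon bases with Gm15441.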

How the data were processed

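The authors deposited raw read counts per gene symbol, with exon coordinates and gene lengths in bases. Per the submitters' processing notes, STAR 2.7.10a, featureCounts from Subread 2.0.3, edgeR 3.40.2 and the build mm10 were used. Strand setting and treatment of reads with several alignments are not given in the sources used here. Columns were assigned to samples by the genotype and number in their names. Genes were filtered with filterByExpr (minimum count 10, minimum total 15), scaled by TMM and compared with edgeR 4.0.16 (glmQLFit with robust=TRUE, glmQLFTest, genotype as the only term) in R 4.3.3, over 13296 genes, with Benjamini-Hochberg adjustment. SEs came from the F statistic, and 95% intervals from its t distribution. The fit estimates the spread of each gene partly from the other genes, so an SE does not measure the distance between the replicates of that gene alone. TPM was computed from the deposited counts and lengths. The test was tried on simulated data whose spread was set lower than that of these libraries. That trial therefore does not show what the test can detect here. All 4 libraries entered every full fit. The members and gene lists were chosen with earlier results of these data known. Genes given in full were those without overlap at a log2 fold change of at least 0.3, those at an unadjusted p under 0.05, leading isozymes and a fixed set of key enzymes. Alternatives used DESeq2 1.42.0, limma 3.58.1, other scalings and filters, a replicate block and each library left out.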

Additional observations from a re-analysis of the deposited data

How the results depend on the processing

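No gene was called with median-ratio or total-count scaling, limma-voom, non-robust or legacy quasi-likelihood fits, an unfiltered table, a stricter filter (a mean of 5 CPM, with 1 CPM reached in 2 libraries) or the replicate block. DESeq2 called 6 genes and the likelihood ratio test 4, none of them members, and 0 to 1 were called with 1 library left out. The replicate block left 26 members lower and a median of -0.16. The correlation of same-numbered deviations was 0.0126, and the labels do not pair the samples. With single libraries left out, 24 to 28 members were lower, the median ran from -0.30 to -0.12, and 1 to 5 members had an unadjusted p under 0.05 (3 in the full fit). Over the 22 tested members with under 5% of their words in other genes, a choice made after seeing the data, the median was -0.14. No member changed direction under the other settings. With 1 library left out 20 of 36 members kept their direction, and 16 did not. Their log2 fold changes ran from -0.25 to 0.23 for Hk3, -0.39 to 0.13 for Pfkm, -0.21 to 0.23 for Pfkp, -2.08 to 2.29 for Pfkfb1, -0.76 to 0.20 for Pfkfb3, -0.61 to 1.32 for Pfkfb4, -0.01 to 0.88 for Ldhb, -0.54 to 0.22 for Slc16a1, -3.33 to 0.27 for Slc16a3 (its lower end rests on 2 reads, under the floor, and is no measured fold), -0.51 to 0.54 for Pdk2, -0.42 to 0.13 for Pdk3, -0.32 to 0.04 for Pdha1, -0.10 to 0.14 for Pdhb, -0.19 to 0.25 for Dlat, -0.47 to 0.13 for G6pdx and -0.31 to 0.10 for Pgd. The cause was not tested. The number of steps led by 1 isozyme in every library was 6, from 6 to 8 with a library left out and 4 by raw counts, where length is ignored. With 2 libraries per genotype and a biological coefficient of variation of 46.0%, small differences could not be detected.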
